A study of Homo sapiens with 12 samples.

Results

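Vehicle-treated cultures of HK-2 cells sampled at 48 h were compared with vehicle-treated cultures sampled at 24 h, which asks what changed with time alone in the control arm of a kidney toxicity study. HK-2 is an established human cell line of immortalised proximal tubule epithelium. The comparison used 6 of 12 arrays, 3 control cultures at 24 h and 3 at 48 h, called biological replicates by the labels and paired here by their replicate number. The other 6 arrays hold cultures given a high dose of a compound labelled Kbr for 24 h or 48 h, and they enter here as a second pair of time points and for the shared estimate of spread. All 4 groups carry the papillomavirus genes that immortalised the line, and all were grown in the same DMEM and Ham's F12 mixture with EGF, hydrocortisone, insulin, transferrin and selenite. Cells were plated 1 day before treatment and were close to confluent when vehicle or Kbr was added. The identity of the vehicle and whether the medium was renewed between the time points are not given in the sources used here. All cultures are of this 1 line, so the p-values below measure the spread between these cultures and not between donors. Of 54675 probe sets, 41091 carried 1 gene symbol. Tests covered the 19345 of these with log2 values over 4 in 3 or more of the 12 arrays, and 21746 stayed below that level. Counts by gene use the 10574 genes, of 19775, whose probe set with the highest mean was among those tested.

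An epithelial culture that reaches confluence is known to slow its division and to settle into a sheet with a basement membrane beneath it and transporters in its membranes. Dividing cells carry transcripts of the replication machinery in S phase and of the mitotic machinery in G2 and M phase, spread-out cells carry those of the contractile actin skeleton, and proximal tubule cells in the kidney carry those of solute carriers and brush border enzymes. Each array measures the RNA of a whole culture, so fewer cells of a kind and less RNA per cell cannot be told apart.

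Between 24 h and 48 h, most tested transcripts for mitosis, 26 of 46 for DNA replication, some for contractile actin and that of the interstitial collagenase MMP1 fell, and some for basement membrane chains, clock factors and ion and osmolyte carriers rose. At an adjusted p under 0.05, 3287 of 19345 probe sets differed (17.0%), 1378 higher (7.12%) and 1909 lower (9.87%) at 48 h. By gene, 1954 of 10574 were called (18.5%), 814 higher (7.70%) and 1140 lower (10.8%). The changes were mostly small. The median size among called genes was 0.50 on the log2 scale, and 162 genes (1.53%) passed the threshold with a change of at least 2-fold, 91 higher and 71 lower. All 3 pairs moved 1 way in 1953 of the 1954 called genes (59.0% of all genes did so), and in 1419 of them the 24 h and 48 h arrays did not overlap (26.9% of all genes). The median change over all genes was -0.03.

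How many genes were called rested on the pairing by replicate number. Without the replicate block, 403 probe sets were called, 186 higher and 217 lower, and all 403 were among the 3287. With the 6 control arrays alone and the block, 2134 were called, 1842 of them shared. With the same 6 arrays and no block, 0 were called by limma, although 3329 had an unadjusted p under 0.05. Leaving out replicate 1, 2 or 3 from all groups gave 235, 36 and 1673 calls. Across probe sets, the changes of any 2 of the 3 pairs correlated between 0.60 and 0.62.

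The control arrays differed by replicate as well as by time. On the leading principal component of the 6 arrays, with 51.6% of the variance, the 24 h arrays scored -16, -7.68 and -46.5 and the 48 h arrays 36.3, 33.2 and 0.672 for replicates 1 to 3. Replicate 3 thus lay lowest at both times. Probe sets for 18S ribosomal RNA, which has no long poly-A tail, read 7.53, 7.65 and 7.75 at 24 h and 7.93, 7.98 and 8.30 at 48 h, a log2 difference of 0.43 without overlap. Those for 28S differed by 0.18, also without overlap. A two-sided exact permutation test gave p = 0.1 for both, which no split of 6 arrays into 3 and 3 can go below, and 0.2 once adjusted over the 4 measures of quality. The part of this in the results was not tested. The 3' to 5' signal differences of GAPDH (-0.11 ± 0.05 at 24 h, -0.09 ± 0.05 at 48 h, SD, n = 3) and ACTB (0.83 ± 0.18 and 0.87 ± 0.23) overlapped between times.

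Defining markers were partly at odds with the labelled cell type. Of 31 measured proximal tubule transport genes, 20 stayed at or under a log2 value of 4 in all 6 control arrays, among them LRP2 and CUBN, the endocytic receptors megalin and cubilin, the water channel AQP1 and the phosphate carrier SLC34A1. For brush border and tubule metabolism genes this held for 13 of 19. Of 12 measured kidney lineage factors, 9 stayed at or under 4 in the same way, PAX2 and LHX1 among them. PAX8, of the same list, was well expressed, at 10.66, 10.60 and 10.78 at 24 h. Markers of other cells were mostly at that low level too: 6 of 6 leukocyte markers, 7 of 9 for endothelium, 7 of 10 for fibroblasts, 5 of 6 for squamous epithelium and 10 of 14 for other nephron segments. The log2 of the summed fibroblast signal ran from 12.4 to 12.9 at 24 h and was 12.3 in the 48 h arrays, and that of other nephron segments ran from 9.21 to 9.57 and from 9.69 to 9.99. The fibroblast markers over that level in every control array were COL1A1, DCN and LUM.

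The fall with the largest size was in TXNIP, an arrestin-like protein that binds thioredoxin and restrains glucose uptake. Its transcription is known to respond to glucose through carbohydrate response elements. TXNIP read 9.35, 9.86 and 9.13 in the 24 h cultures and 4.38, 6.54 and 6.79 in the 48 h cultures. Every 48 h culture lay below every 24 h culture, with replicate 1 lowest. The log2 change was -3.54 (SE 0.45, adjusted p = 0.00248), 11.6-fold, and its 3 probe sets moved between -3.55 and -3.13. In the Kbr cultures TXNIP also fell, by 3.14, from a lower level at 24 h (5.63, 6.54 and 7.40). The 250 bases before the TXNIP start are shown for a stretch, in capitals, of the carbohydrate response element type, a pair of E-box-like sites a fixed distance apart. It occurs on either strand in 16 of 35116 promoters of the same table (0.0456%), and it was searched after the value of TXNIP was seen. The first capital lies at -88 from the start, on the minus strand at chr1:145996580-145996829 of GRCh38.p14, from RefSeq, which lists 2 starts for the gene.
TXNIP: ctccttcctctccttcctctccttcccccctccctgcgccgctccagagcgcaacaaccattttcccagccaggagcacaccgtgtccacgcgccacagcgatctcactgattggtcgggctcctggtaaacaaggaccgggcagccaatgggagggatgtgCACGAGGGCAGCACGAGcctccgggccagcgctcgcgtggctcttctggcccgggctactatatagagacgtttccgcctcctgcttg

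SLN, sarcolipin, a small inhibitor of the calcium pump of the endoplasmic reticulum, read 8.27, 7.53 and 8.97 at 24 h and 5.11, 4.13 and 6.41 at 48 h. The order of the replicates was the same at both times, and the change was -3.04 (SE 0.21, adjusted p = 0.000436). MMP1, the collagenase of fibrillar collagen, read 7.27, 7.26 and 7.49 at 24 h and 2.92, 4.78 and 5.22 at 48 h. It fell by 3.03 (SE 0.42, adjusted p = 0.0034). TNFAIP6, a secreted hyaluronan-binding protein of inflamed tissue, read 5.76, 5.63 and 6.79 and then 3.02, 3.46 and 3.47, a change of -2.74 (SE 0.28, adjusted p = 0.00156). TM4SF4, a tetraspan membrane protein, was tight at both times, at 6.32, 6.56 and 6.44 and then 3.8, 4.63 and 4.38 (-2.17, SE 0.16, adjusted p = 0.00056). INHBA, the activin A subunit, read 6.34, 7.10 and 7.12 and then 4.99, 4.48 and 4.85, a change of -2.08 (SE 0.22, adjusted p = 0.00167), and a second probe set at -1.22 was not called. DPYSL3, a cytoskeletal protein of the collapsin response family, fell by 1.85 (SE 0.13, adjusted p = 0.000436), and THBS1, thrombospondin 1, by 1.5 (SE 0.20, adjusted p = 0.00322).

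The other leading falls each lost the call under at least 1 alternative. TAGLN, the actin-binding protein transgelin, read 6.83, 4.29 and 5.55 at 24 h and 3.15, 3.23 and 3.33 at 48 h. Its change of -2.32 (SE 0.46, adjusted p = 0.0121) had an adjusted p of 0.0592 without the replicate block and up to 0.0553 with 1 control array left out, and 1 of its 2 probe sets was called. GAL, the neuropeptide galanin, fell by 2.20, and the noncoding RNA LINC00973 by 2.32. Their adjusted p values rose to 0.0678 and 0.0761 without the block, while LINC00973 (adjusted p = 0.000436) kept its call with each single control array left out and without replicate 1, 2 or 3 (0.0254, 0.0434 and 0.0148). MARCHF3, a ubiquitin ligase, fell by 1.53 (adjusted p = 0.0696 without the block), DDIAS, a DNA damage response factor, by 1.52 and SERPINB8, a serpin, by 1.79. LYPD6 fell by 1.46, with an adjusted p of 0.0214 that reached 0.085 with 1 control array left out and 0.0676 without the block. For SERPINB8 it reached 0.0549 with 1 control array left out. MARCHF3 was over a log2 value of 4 in 2 control 24 h arrays and 1 Kbr 24 h array alone. LYPD6 was over it in 3 control 24 h arrays and 1 control 48 h array alone. Both thus needed control 24 h arrays to pass the expression filter, which favoured a fall. DDIAS kept its call without the block (0.0381) and with each single control array left out, but not without replicate 1 or 2 (0.0699 and 0.1). Of the falls described before these, TXNIP, MMP1, TNFAIP6 and INHBA lost the call without replicate 2 (0.0673, 0.071, 0.054 and 0.0596) and THBS1 without replicate 1 (0.0737).

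**Figure D1:**
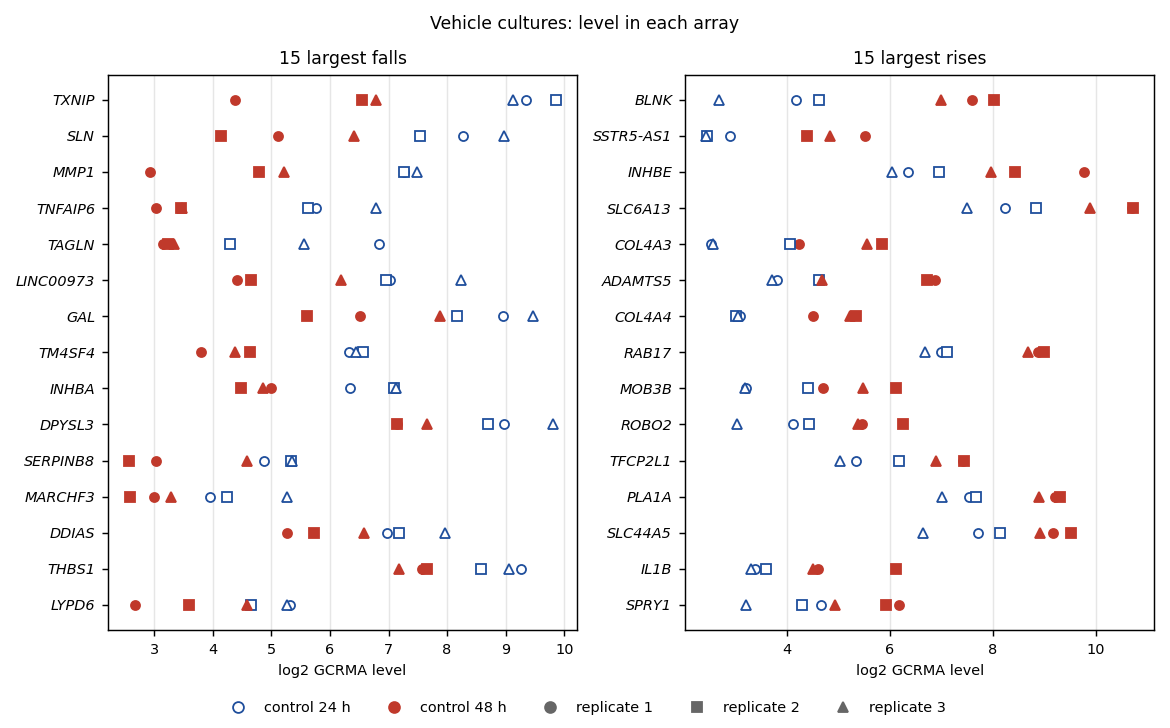
Log2 GCRMA level of the 15 largest falls and the 15 largest rises among called genes whose 24 h and 48 h arrays did not overlap, one row per gene. Open symbols are control 24 h arrays, filled symbols control 48 h arrays, and shapes give the replicate number. In every row the filled symbols lie to 1 side of the open ones, since the choice of genes required it.

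The rise with the largest size was in BLNK, an adaptor of B cell receptor signalling. BLNK read 4.18, 4.63 and 2.68 at 24 h and 7.59, 8.03 and 7.00 at 48 h. Replicate 3 was lowest at both times, and the groups lay far apart. The change was 3.71 (SE 0.33, adjusted p = 0.00119), 13.1-fold, and the gene has 1 tested probe set. The 6 leukocyte markers measured were at or under 4 in every control array. SLC6A13, a GABA transporter of kidney and liver, read 8.24, 8.84 and 7.49 and then 10.70, 10.72 and 9.89 (2.24, SE 0.17, adjusted p = 0.00056). RAB17, a small GTPase of epithelial membrane traffic, had the narrowest range over pairs of the 15 leading rises, going from 7.00, 7.11 and 6.69 to 8.88, 9.00 and 8.69. Its pairs moved by 1.88 to 2.00 (1.92, SE 0.08, adjusted p = 3.98e-05).

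PLA1A, a phosphatidylserine phospholipase, rose by 1.72 (SE 0.13, adjusted p = 0.00056), from 7.53, 7.68 and 7.02 to 9.21, 9.30 and 8.90. SLC44A5, of the choline transporter-like family, rose by 1.70 (SE 0.19, adjusted p = 0.00175), and its 4 probe sets moved between 1.70 and 1.83. TFCP2L1, a transcription factor of distal tubule and collecting duct, read 5.34, 6.18 and 5.04 and then 7.42, 7.45 and 6.90 (1.73, SE 0.22, adjusted p = 0.00273). ROBO2, a receptor for Slit ligands in kidney development, rose by 1.83, MOB3B, a kinase activator of the MOB family, by 1.83, and SPRY1, a feedback inhibitor of receptor tyrosine kinases, by 1.62 (adjusted p 0.00432, 0.00526 and 0.00938). ADAMTS5, an aggrecan-cleaving protease, rose by 2.04 from 3.82, 4.63 and 3.71 to 6.87, 6.72 and 4.69, with the 48 h replicates far apart (adjusted p = 0.00925, and 0.0644 without the block). INHBE, the activin E subunit, read 6.36, 6.96 and 6.05 and then 9.76, 8.43 and 7.96. Its change of 2.26 was barely called (SE 0.67, adjusted p = 0.0481) and lost the call when any 1 of 5 control arrays was left out (adjusted p up to 0.169) and without the block (0.207). SSTR5-AS1, an antisense RNA, and IL1B, the cytokine interleukin 1 beta, rose by 2.33 and 1.65 from background level. Both exceeded a log2 value of 4 in the 48 h control arrays alone, so they passed the expression filter only through that group and had to differ. BLNK, COL4A3, ADAMTS5, MOB3B, ROBO2 and SPRY1 also needed 48 h control arrays to pass. They had 1 or 2 of the 24 h control arrays and 0 Kbr arrays over 4. Of the 30 leading genes, 26 kept the call with each single control array left out, 23 without the block, and 17, 12 and 26 without replicate 1, 2 or 3 of all groups.

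Mitosis transcripts fell with few exceptions. Of 45 tested G2 and mitosis genes, 40 fell and 0 rose, beside 10.8% of all genes that fell, and the median change was -0.63 against -0.03 over all genes. Each pair gave a similar median, -0.66, -0.53 and -0.64. The 24 h and 48 h arrays did not overlap in 43 of the 45, against 26.9% of all genes. MYBL2, a transcription factor that switches on mitotic genes, read 10.07, 9.61 and 10.43 at 24 h and 8.97, 8.59 and 9.42 at 48 h (-1.04, SE 0.09, adjusted p = 0.00111). CDC20, an activator of the anaphase-promoting complex, read 11.52, 11.36 and 12.04 and then 10.63, 10.44 and 10.94 (-0.97, SE 0.09, adjusted p = 0.00123). In both genes replicate 2 was lowest and replicate 3 highest at each time, while every pair fell by a like amount. CCNA2 and CCNB1, the cyclins of S and M phase, fell by 0.90 and 0.83, AURKB, a kinase of chromosome segregation, by 0.82, and the proliferation marker MKI67 by 0.65 (SE 0.08), from 11.63 ± 0.24 to 10.98 ± 0.14 (SD, n = 3). The counts leaned on the pairing: 14 fell without the block, 38 with the 6 control arrays alone, 29 in every omission of 1 control array, and 5, 0 and 36 without replicate 1, 2 or 3.

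The promoter of CDC20 is shown for letters that are known to recur in genes of the G2 and M phases, the CCAAT box, bound by NF-Y, and the CHR, TTTGAA, a site of the DREAM complex that holds these genes down in resting cells. Capitals mark CCAAT at -100 and -55 and the CHR at -65 and, as its reverse complement TTCAAA, at -178; none overlap. The window is chr1:43358731-43358980 on the plus strand of GRCh38.p14, from RefSeq. Among the 38 list members with a promoter entry, 31 held CCAAT on either strand (81.6%) against 32% of 35116 promoters, and 21 held the CHR (55.3%) against 13.3%. A list gene counted if any of its listed promoters held the letters, whereas the 35116 promoters were counted singly. Genes with several starts thus had more chances, and the shares are not on the same scale. CCAAT was not particular to this list: 11 of 16 clock promoters held it (68.8%), and 1 of them the CHR (6.25%). The motifs were picked with the list's values known.
CDC20: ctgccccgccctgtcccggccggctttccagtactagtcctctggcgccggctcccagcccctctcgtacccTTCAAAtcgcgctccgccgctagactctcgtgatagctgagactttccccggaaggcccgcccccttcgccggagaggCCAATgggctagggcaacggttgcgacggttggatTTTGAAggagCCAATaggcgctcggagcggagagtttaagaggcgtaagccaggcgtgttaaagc

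Many replication genes fell as well. Of 46 tested members 26 fell and 0 rose, beside 10.8% of all genes that fell and 7.70% that rose. The median was -0.38, with pair medians of -0.52, -0.39 and -0.24. MCM10, a factor of replication initiation, read 8.28, 8.51 and 8.69 and then 6.54, 7.02 and 7.69. It fell by 1.41 (SE 0.20, adjusted p = 0.00348). ORC1 of the origin recognition complex, CDC45 of the helicase and UHRF1, which keeps DNA methylation through replication, fell by 0.99, 0.92 and 0.89. ORC1 had an adjusted p of 0.0117, which reached 0.0522 with 1 control array left out. Without the block 13 fell, in every omission of 1 control array 14, and without replicate 1, 2 or 3 the counts were 1, 0 and 24. Of 12 replication-dependent histone genes on the array 5 were tested, and 2 rose, H2AC6 by 0.95 and H2BC12 by 0.77, and 0 fell. Both lost the call with 1 control array left out (adjusted p up to 0.103 and 0.0648). Whether these readings follow the histone supply of S phase was not tested. Among 28 G1 and E2F genes 5 fell and 1 rose. The repressors E2F7 and E2F8 fell by 0.76 and 0.67 and the G1 cyclin CCNE1 by 0.60. E2F7 lost its call when any 1 of 4 control arrays was left out (adjusted p up to 0.0958), and its second probe set, at -0.04, was not called. CDKN1C, the CDK inhibitor p57, rose by 0.63 (SE 0.11, adjusted p = 0.00717, and 0.268 without the block), its arrays overlapping between times. Other brakes on the cycle were not called, CDKN1A at -0.26, CDKN1B at 0.29 and RBL2 at 0.30.

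**Figure D2:**
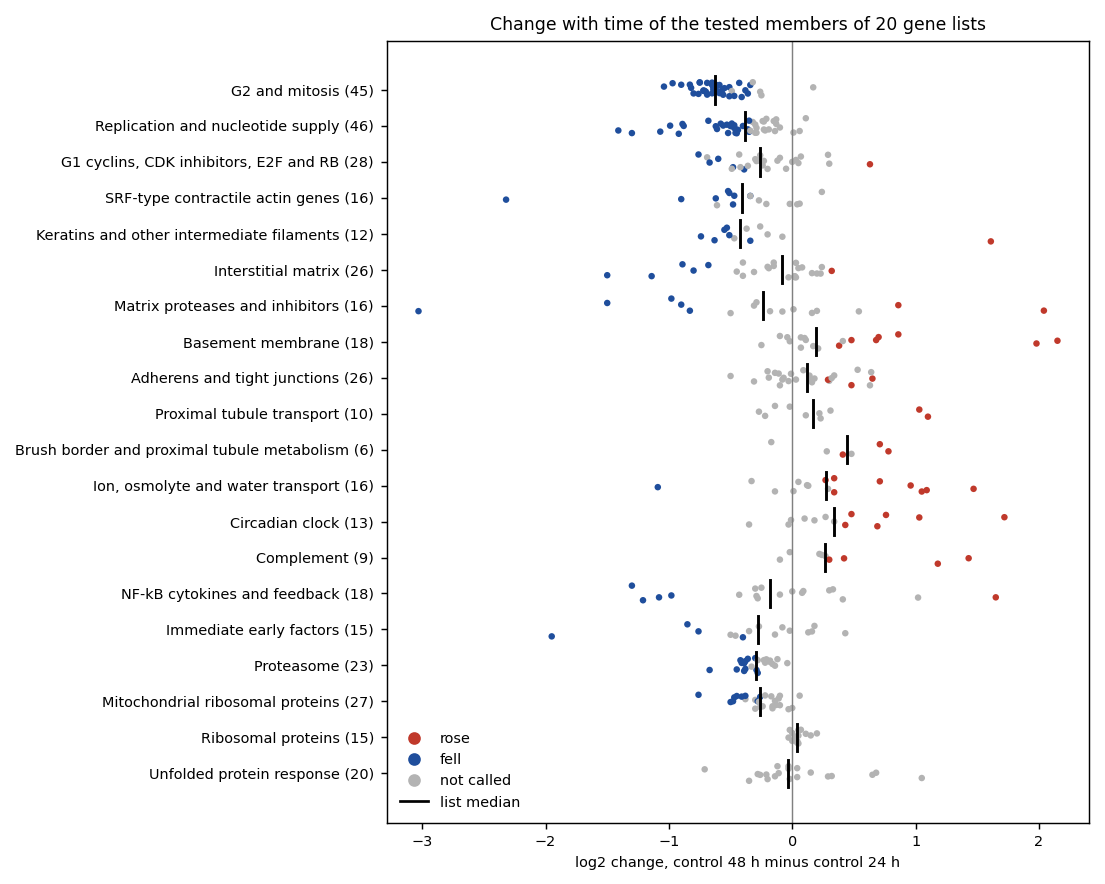
Log2 change from 24 h to 48 h in control cultures for the tested members of 20 gene lists, one point per gene, with the number of tested members in brackets. Red points rose, blue points fell, grey points were not called, and the black bar is the list median, which runs from -0.63 for G2 and mitosis to 0.45 for the 6 brush border genes.

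Contractile actin genes fell in part. Of 16 tested genes of the type driven by serum response factor, 8 fell and 0 rose, with a median of -0.41. Over all genes 10.8% fell and 7.70% rose. MYL9, the regulatory light chain of nonmuscle myosin, read 11.07, 9.96 and 11.06 and then 10.06, 9.14 and 10.19. The groups overlapped because replicate 2 was low at both times, but each pair fell (-0.90, SE 0.11, adjusted p = 0.00235, and 0.252 without the block). MYH9, nonmuscle myosin heavy chain, fell by 0.62, and the tropomyosins TPM4 and TPM1 by 0.52 and 0.48 (for TPM1, adjusted p up to 0.0796 with 1 control array left out). SRF itself stood at -0.02 and ACTB at -0.21, neither called. No member was called without the block, 4 were called in every omission of 1 control array, and 1, 0 and 4 fell without replicate 1, 2 or 3. Of 12 keratins and other intermediate filament genes 6 fell and 1 rose. KRT18 and KRT8, the keratin pair of simple epithelium, fell by 0.53 and 0.51 and the lamins LMNB2 and LMNB1 by 0.74 and 0.55. KRT8 and LMNB1 lost the call with 1 control array left out (adjusted p up to 0.0898 and 0.0921). KRT20, a keratin of differentiated epithelium, went the other way, from 6.51, 7.74 and 6.57 to 7.93, 8.96 and 8.77 (1.61, SE 0.20, adjusted p = 0.00229, and 0.0681 without the block). YAP and TEAD targets gave 1 rise and 1 fall among 20, and 0 kept the call in every omission of 1 control array.

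Of 18 basement membrane genes 7 rose and 0 fell, beside 7.70% of all genes that rose, with a median of 0.19. COL4A3 and COL4A4 encode chains of the type IV collagen network of mature kidney basement membranes, and they lie head to head. COL4A3 read 2.54, 4.06 and 2.58 at 24 h and 4.23, 5.84 and 5.56 at 48 h (2.15, SE 0.37, adjusted p = 0.00708). COL4A4 read 3.09, 3.01 and 3.06 and then 4.51, 5.35 and 5.23 (1.98, SE 0.17, adjusted p = 0.000971), and 2 of 2 probe sets were called. COL4A3 at 24 h was at a low level in replicates 1 and 3 but over 4 in replicate 2, close to the lowest 48 h culture. COL4A4 passed the expression filter only through the 48 h control arrays, so it had to differ. NID2, the linker nidogen 2, rose by 0.86 (SE 0.11), the laminin chain LAMA1 by 0.68 (SE 0.07), LAMB1 by 0.48 (SE 0.08) and LAMC1 by 0.38. COL4A5, the partner chain, rose by 0.70 (adjusted p = 0.0404, and up to 0.157 with 1 control array left out). For LAMC1 it reached 0.113 in the same way. COL4A1 and COL4A2, the ubiquitous chains, stood at 0.07 and 0.17, not called. Without the block 4 rose, in every omission of 1 control array 5, and without replicate 1, 2 or 3 the counts were 1, 0 and 4.

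The promoters of COL4A3 and COL4A4 are shown because the pair rose together and shares its upstream DNA. Their starts lie 419 bases apart on chromosome 2, and the 250-base windows share 82 bases, in capitals, read on opposite strands. The COL4A3 window is chr2:227164374-227164623 on the plus strand and the COL4A4 window chr2:227164206-227164455 on the minus strand of GRCh38.p14, from RefSeq.
COL4A3: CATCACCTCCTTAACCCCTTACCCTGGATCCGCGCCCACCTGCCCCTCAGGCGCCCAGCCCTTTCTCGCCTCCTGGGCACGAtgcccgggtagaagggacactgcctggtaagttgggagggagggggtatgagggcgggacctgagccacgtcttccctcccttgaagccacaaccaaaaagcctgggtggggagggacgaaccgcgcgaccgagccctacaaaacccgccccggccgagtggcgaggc
COL4A4: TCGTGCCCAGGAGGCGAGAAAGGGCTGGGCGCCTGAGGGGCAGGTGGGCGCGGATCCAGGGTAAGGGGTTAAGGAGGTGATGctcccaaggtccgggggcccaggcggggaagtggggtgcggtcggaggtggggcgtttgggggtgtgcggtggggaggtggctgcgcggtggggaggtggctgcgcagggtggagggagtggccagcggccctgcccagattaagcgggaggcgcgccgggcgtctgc

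Among 26 interstitial matrix genes 5 fell and 1 rose. This and the counts that follow stand beside 10.8% of all genes that fell and 7.70% that rose. THBS1 (above) was followed by TGFBI, a matrix protein induced by TGF-beta, which read 11.06, 10.13 and 10.48 and then 9.62, 9.19 and 9.45 (-1.14, SE 0.14, adjusted p = 0.00229). COL1A1 of type I collagen fell by 0.80, with an adjusted p of 0.0175 that reached 0.0663 with 1 control array left out. Of its 3 probe sets 1 was called, and their changes ran from -0.91 to -0.01. FN1, fibronectin, stood at -0.03, not called. Of 16 matrix protease and inhibitor genes 5 fell and 2 rose. Besides MMP1, PLAT, the tissue plasminogen activator, fell by 1.5 (SE 0.18), with arrays that overlapped because replicate 3 was high at both times (6.81, 6.39 and 8.44, then 4.78, 5.19 and 7.19). SERPINE2, a protease inhibitor, fell by 0.90 (SE 0.12), MMP7, matrilysin, by 0.98 and PLAUR, the urokinase receptor, by 0.83. MMP7 lost its call when any 1 of 4 control arrays was left out (adjusted p up to 0.0925), and PLAUR when any 1 of the 6 was (up to 0.147). In the activin and TGF-beta group 2 of 24 fell, INHBA and the TGF-beta target PMEPA1 (-0.89, SE 0.12), and ID2 rose by 0.44, a call lost when any 1 of the 6 control arrays was left out (adjusted p up to 0.148).

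Of 16 ion, osmolyte and water transport genes 8 rose and 1 fell, beside 7.70% of all genes that rose and 10.8% that fell. The list median was 0.28. FXYD2, the gamma subunit that tunes the sodium pump in kidney, read 12.83, 12.79 and 12.39 and then 14.18, 13.69 and 13.41 (1.09, SE 0.14, adjusted p = 0.00273). Its probe set is of a kind that can bind related transcripts, and a second one at 0.27 was not called. CLCN5, an endosomal chloride exchanger mutated in Dent disease, read 7.67, 7.59 and 7.03 and then 8.90, 8.53 and 8.0 (1.05, SE 0.10, adjusted p = 0.00119, and 0.0687 without the block), and 2 of its 4 probe sets were called. NFAT5, the tonicity-responsive factor, rose by 0.71 (SE 0.10), and SLC5A3, the myo-inositol carrier, and SLC6A12, the betaine carrier, which are known NFAT5 targets, by 0.96 and 1.47. SLC6A12 lost its call when either of 2 control arrays was left out (adjusted p up to 0.0778), and SLC5A3 when any 1 of 3 was (up to 0.0668). SLC6A12 was over a log2 value of 4 in 1 control 24 h array, 3 control 48 h arrays and 0 Kbr arrays. Its passing of the expression filter thus needed control 48 h arrays, which favoured a rise. SLC26A2, a sulfate carrier, fell by 1.09 (SE 0.15). Without the block 2 rose and 1 fell, in every omission of 1 control array 4 of the 9 kept the call, and the rises without replicate 1, 2 or 3 numbered 2, 1 and 4.

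Proximal tubule genes could be followed in 10 transport and 6 brush border and metabolism genes. Counts here are to be read beside the 7.70% of all genes that rose and the 10.8% that fell. SLC3A1, a subunit of the cystine carrier, rose by 1.10 (SE 0.17), from 8.86, 8.57 and 7.81 to 9.96, 9.60 and 9.00, and SLC4A4, the basolateral bicarbonate carrier, by 1.03 (SE 0.14), from 11.58, 11.92 and 10.77 to 12.57, 12.79 and 12.01. The other 8 transport genes were not called. Of the 10, 6 changes were positive and 4 negative, and the pair medians were -0.09, 0.08 and 0.34. ENPEP, aminopeptidase A, MIOX, which opens the inositol ring, and DPP4, dipeptidyl peptidase 4, rose by 0.78, 0.71 and 0.41. None of these 5 was called without the block (adjusted p 0.0759 to 0.305), and DPP4 lost its call when any 1 of 5 control arrays was left out. Of 14 tubule injury genes 2 fell, the progenitor factor SOX9 by 1.35 (SE 0.16; 8.26, 7.81 and 8.07, then 7.13, 6.68 and 6.29) and CD44 by 0.70, and 2 rose, clusterin (CLU) by 0.86 (SE 0.10) and GDF15 by 0.84. GDF15 lost its call when any 1 of 5 control arrays was left out (adjusted p up to 0.154). HAVCR1, the injury marker KIM-1, stood at -0.04. Among 26 junction genes 3 rose and 0 fell, CLDN3 by 0.65, PARD6B by 0.48 and EPCAM by 0.29, and 0 kept the call in every omission of 1 control array. CDH1, E-cadherin, stood at 0.34 and CLDN2 at -0.01, not called.

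Growth and inflammation signals moved gene by gene, with list counts to be read beside the 10.8% of all genes that fell and the 7.70% that rose. FOSL1, an AP-1 subunit, read 6.48, 4.66 and 7.18 and then 3.95, 3.15 and 5.38, overlapping between times with replicate 2 low at each (-1.95, SE 0.29, adjusted p = 0.00442, and 0.155 without the block). FOSL2 fell by 0.85 and KLF10 by 0.76, while FOSL2's 5 probe sets ran from -1.31 to -0.42 and 2 were called. HBEGF, an EGF receptor ligand, fell by 1.10 (SE 0.16), from 7.13, 7.17 and 8.06 to 6.08, 6.20 and 6.76, and DUSP6, a feedback phosphatase of ERK, rose by 0.46 (adjusted p up to 0.154 with 1 control array left out). IGF1R, the IGF receptor, rose by 0.74 (SE 0.09), and 2 of its 4 probe sets were called, with changes from 0.21 to 0.83. Of 18 NF-kB cytokine genes 4 fell, CXCL5 by 1.30, IL6 by 1.21, CCL20 by 1.08 and IL32 by 0.98 (SE 0.13), and 1 rose, IL1B. Of these 5, IL1B and IL32 kept the call with each single control array left out, and without the block IL1B alone was called. IL1B passed the expression filter through the control 48 h arrays alone, so it had to differ. Of 9 complement genes 4 rose and 0 fell, and CFB alone kept the call in every omission of 1 control array. CFB, factor B of the alternative pathway, read 6.74, 6.78 and 5.65 and then 7.61, 8.24 and 7.62 (1.43, SE 0.22, adjusted p = 0.00526), but its second probe set stood at 0.11. Among 28 interferon-stimulated genes 3 rose and 2 fell, and 0 kept the call in every omission of 1 control array.

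Clock output factors rose. Of 13 clock genes 6 rose and 0 fell, beside 7.70% of all genes that rose, with a median of 0.34. DBP, a factor that clock proteins drive through E-boxes, read 4.43, 3.4 and 3.25 and then 6.28, 5.61 and 4.34. Replicate 1 was highest at both times, so the groups overlapped, and all 3 pairs rose (1.72, SE 0.31, adjusted p = 0.00902, and 0.0644 without the block). Its relative HLF rose by 1.03, BHLHE41, a repressor of the loop, by 0.76, PER2 by 0.69, NR1D2 by 0.48 and PER3 by 0.43. BMAL1 and CLOCK, the activators, stood at -0.03 and 0.18, not called. DBP and BHLHE41 kept the call with each single control array left out, 0 members kept it without the block, and 0, 0 and 3 did without replicate 1, 2 or 3. DBP was over a log2 value of 4 in 1 control 24 h array, 3 control 48 h arrays and 0 Kbr arrays. It thus needed control 48 h arrays to pass the expression filter, which favoured a rise. The sampling times are 24 h apart. An E-box, CACGTG, which reads the same on both strands, lay in 5 of 16 clock promoters (31.2%) against 6.34% of all and 6 of 38 G2 and mitosis promoters (15.8%). The 2 list shares count a gene once if any of its promoters held it, and the 6.34% counts promoters singly. TSC22D3, a glucocorticoid target, rose by 1.06 (SE 0.19, adjusted p = 0.00923, and 0.232 without the block), while SGK1 and FKBP5, other glucocorticoid targets, stood at 0.04 and 0.02.

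**Figure D3:**
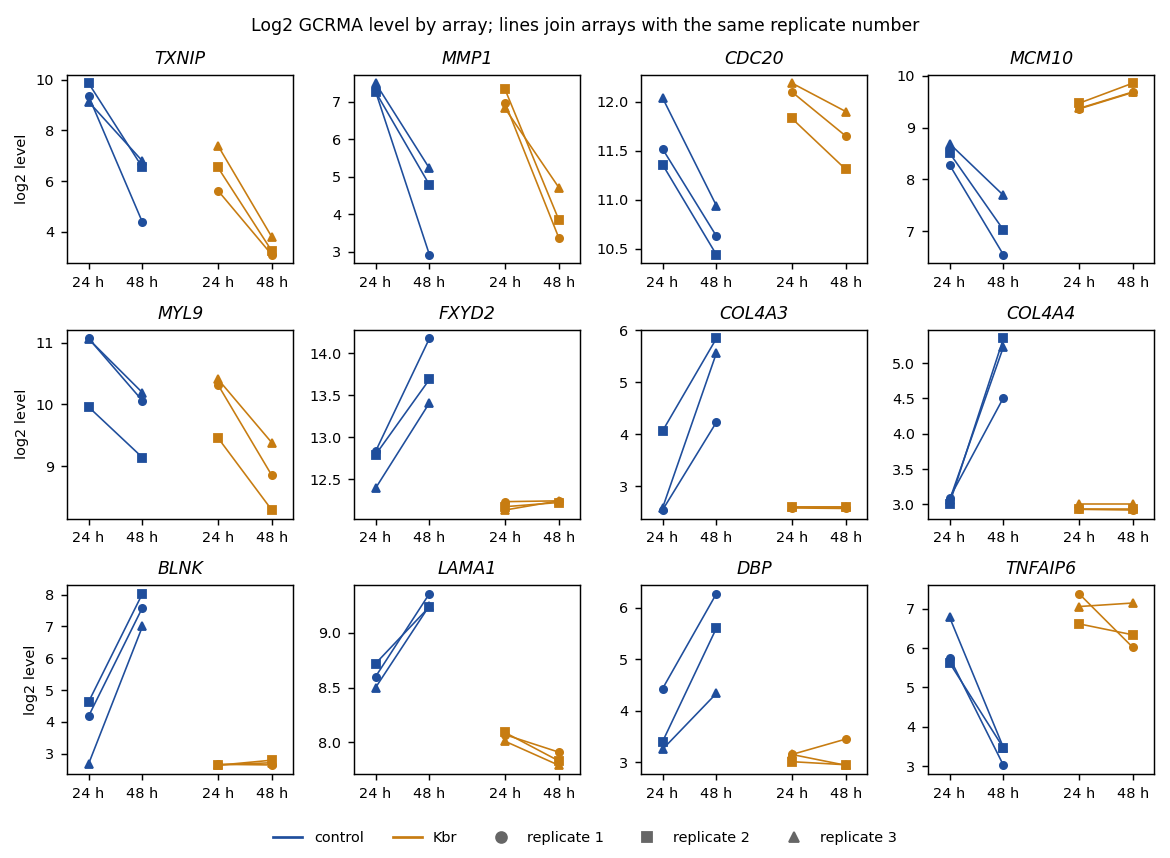
Log2 GCRMA level of 12 genes in each of the 12 arrays, control arrays in blue and Kbr arrays in orange, with lines joining arrays of the same replicate number. TXNIP and MMP1 fell in both treatments, whereas COL4A3, COL4A4 and BLNK rose in control cultures and stayed near 2.6 to 3.0 in Kbr cultures; vertical scales differ between panels.

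Protein turnover and ribosome genes changed little in size, and their counts stand beside 10.8% of all genes that fell and 7.70% that rose. All 23 tested proteasome genes had a negative change, and 12 fell, with a median of -0.29. PSMD12, a lid subunit, fell by 0.67 (SE 0.12) and PSMA7, a core subunit, by 0.39 (SE 0.07). Without the block 0 of them were called, and 2 in every omission of 1 control array. Of 27 mitochondrial ribosomal protein genes 9 fell, with a median of -0.26, led by MRPL1 (-0.76, SE 0.09, adjusted p = 0.00211). Of 23 ribosome biogenesis genes 5 fell and 0 rose. None of 15 cytosolic ribosomal protein genes was called by limma (1 at an unadjusted p under 0.05, 0 without the block and 0 with the control arrays alone), and their changes ran from -0.03 to 0.20. Of 27 respiratory chain genes 1 fell, NDUFA9 by 0.24, a call lost when any 1 of the 6 control arrays was left out (adjusted p up to 0.151). Lysosome and autophagy genes gave 4 rises among 31, with the protease cathepsin H (CTSH) at the top (0.96, SE 0.12), and ATP6V1A, a subunit of the lysosomal proton pump (0.63, SE 0.08).

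Metabolic lists held rises and falls, to be read beside the 18.5% of all genes called. PPARA, the lipid-sensing nuclear receptor, rose by 0.70 (SE 0.09, adjusted p = 0.00256, and 0.0958 without the block), while CPT1A, its target in fatty acid oxidation, stood at 0.28. ACSL1, which activates fatty acids, rose by 0.81 (SE 0.10) and ELOVL7, an elongase, by 0.64 (SE 0.07), among 4 rises and 0 falls of 15 fatty acid synthesis genes. Glucose handling was mixed: the glucose carrier SLC2A1 fell by 0.60, PFKFB3 and PFKFB2, which set glycolytic flux, rose by 0.55 and 0.89, and of 21 glycolysis genes 3 rose and 2 fell. SLC2A1 and PFKFB2 each lost the call when any 1 of 5 control arrays was left out (adjusted p up to 0.0975 and 0.115). Among 16 FOXO and glucose-sensing genes TXNIP alone fell, and KLHL24, BCL6, FOXO3 and YPEL5 rose by 0.70, 0.66, 0.44 and 0.31. Of these 5, TXNIP alone kept the call with each single control array left out. KLHL24 had 1 of 5 probe sets called, with changes from 0.20 to 0.70. Of 21 hypoxia-type genes 5 rose and 3 fell. Sterol synthesis gave 2 rises and 2 falls among 20, with HMGCS1 at 0.28, not called, and 0 kept the call in every omission of 1 control array. Stress lists differed from each other. The 20 genes of the unfolded protein response gave 0 calls by limma (1 at an unadjusted p under 0.05, 0 without the block, 2 higher and 1 lower with the control arrays alone). These 0 calls depended on Kbr 48 h replicate 3, which enters the shared estimate of spread. Without that array 3 were called higher and 2 lower. In the ATF4 list 27 of 29 changes were positive, and 2 rose, ATF4 by 0.45 and SLC38A2 by 0.38, and 0 kept the call in every omission of 1 control array. Its median of 0.28 came from pair medians of 0.63, 0.21 and 0.12, and DDIT3 read 10.74, 8.93 and 8.87 at 48 h against 7.80, 8.12 and 7.93 (1.56, adjusted p = 0.151). Without Kbr 48 h replicate 3 the adjusted p of DDIT3 was 0.0272, and 7 genes of the ATF4 list rose and 0 fell. Of 18 heat shock genes 3 fell, CHORDC1, STIP1 and HSPA4 (by 0.59, 0.43 and 0.42), and 16 changes were negative, with a median of -0.21; each of the 3 lost its call with 1 control array left out. Of 24 antioxidant genes of the NRF2 type 5 fell and 1 rose, and of 22 p53 targets 4 fell and 2 rose. In both lists 0 kept the call in every omission of 1 control array, and 0 were called without the block.

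The same interval in Kbr cultures differed for many of these genes. The difference between the changes with time, Kbr minus control, was called for 1904 of 10574 genes (18%), 811 higher (7.67%) and 1093 lower (10.3%) with Kbr, and for 3306 probe sets (17.1%). Within Kbr cultures 3315 genes were called (31.4%), 1368 higher (12.9%) and 1947 lower (18.4%). The difference was called for 726 of the 1954 genes called in control cultures. In the Kbr cultures 609 of the 1954 were called the same way, 153 the other way and 1192 not at all. Across all genes the 2 changes, which share no arrays, correlated at 0.22. Genes are not independent replicates, and this is a description. Without the replicate block 904 probe sets had a called difference. Kbr 48 h replicate 3 stands apart from its group, with a root mean square deviation of 0.297 against 0.175 to 0.242 in the other arrays, and 5585 were called without it.

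Of the 15 leading rises 12 had a called difference to Kbr, and of the 15 leading falls 7. These genes, like the 1954 above, were chosen for their control change, which the difference contains with its sign turned, so the counts are a description. SSTR5-AS1, COL4A4 and IL1B also passed the filter through the control 48 h arrays alone, with 0 Kbr arrays over 4, so their difference to Kbr was fixed by the filter. BLNK, COL4A3, ADAMTS5, MOB3B, ROBO2 and SPRY1 likewise had 0 Kbr arrays over 4. They exceeded it in 1 or 2 control 24 h arrays and needed control 48 h arrays to pass, so the filter favoured a difference. Among the falls, MARCHF3 passed through 2 control 24 h arrays and 1 Kbr 24 h array, so the filter favoured its difference too. BLNK rose by 3.71 in control cultures and read between 2.64 and 2.80 in all 6 Kbr arrays (difference -3.64, adjusted p = 0.00386). COL4A3 and COL4A4 stayed between 2.57 and 3.01 in the Kbr arrays. Over the basement membrane list the difference was called for 12 of 18 genes, each below the control change (10.3% of all genes). In the same list 0 rose and 10 fell with Kbr, beside 12.9% and 18.4% of all genes. SLC44A5 went opposite ways, up by 1.70 in control and down by 1.05 in Kbr cultures, and so did CFB, up by 1.43 and down by 1.57. CDC6, an origin licensing factor, fell by 1.07 in control (adjusted p up to 0.134 with 1 control array left out) and rose by 0.95 in Kbr cultures, reading 11.55, 11.44 and 10.48 at 48 h. MCM10 fell by 1.41 in control and stood at 0.34 in Kbr cultures (difference 1.75, adjusted p = 0.00661), from 9.36, 9.47 and 9.37 at 24 h. For G2 and mitosis, 27 of 45 fell with Kbr too (18.4% of all genes), with a median of -0.36. A called difference was found in 8 of the 45, each above the control change (7.67% of all genes), CDC20 among them (0.55, adjusted p = 0.0225). HBEGF fell by 1.10 without Kbr and rose by 0.81 with it. For SLN, MMP1, TXNIP and TAGLN the changes with and without Kbr were close (differences of 0.05, -0.03, 0.40 and 0.33, adjusted p 0.691 to 0.978), which does not show that they were equal.

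**Figure D4:**
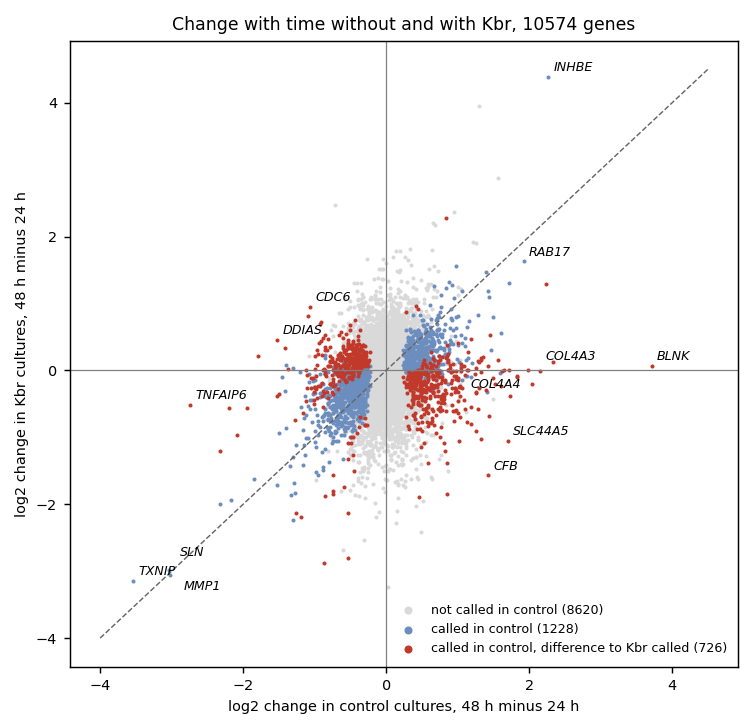
Log2 change from 24 h to 48 h in control cultures (horizontal) against the same in Kbr cultures (vertical) for 10574 genes, one point per gene, with the dashed line where both are equal. Red points are the 726 genes called in control cultures whose difference to Kbr was called. TXNIP, SLN and MMP1 lie near the dashed line, and BLNK and COL4A3 near the horizontal axis.

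**Figure D5:**
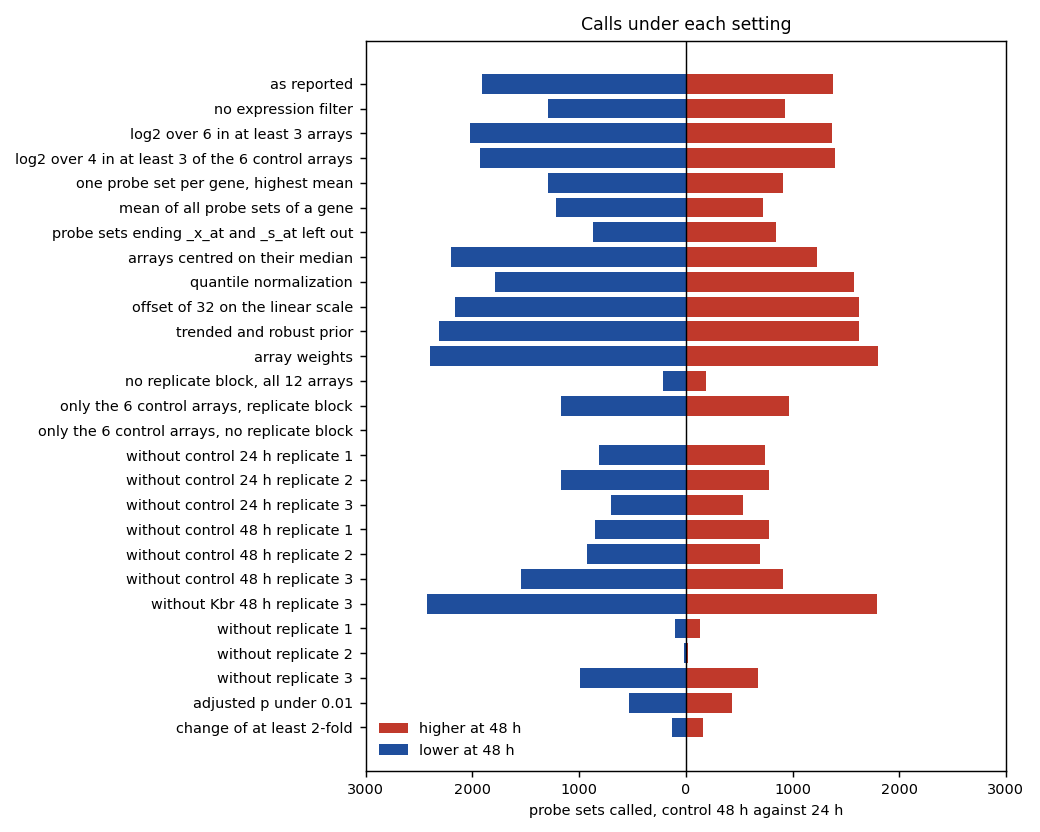
Number of probe sets called higher (red, right) and lower (blue, left) at 48 h in control cultures under each setting. The reported setting gives 1378 and 1909, the fit without the replicate block 186 and 217, and the control arrays alone with no block 0.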

How the data were processed

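RNA from each of 12 HK-2 cultures was put on 1 Affymetrix array, per the labels' protocols. The values are log2 expression as deposited, from GCRMA run by the authors, which corrects background from probe sequence, normalizes across arrays and summarises each probe set, per the submitters' processing notes. The version and the genome build are not given in the sources used here. Array medians ran from 2.89 to 2.96. The number of arrays limits the precision. Probe sets were named from the platform annotation; 1801 with several symbols, 11721 with none and 62 Affymetrix controls were left out, and the 41091 with 1 symbol were used.

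A linear model (lmFit and eBayes of limma 3.58.1, under R 4.3.3; two-sided tests) was fitted on all 12 arrays with group and replicate number as terms (6 residual and 2.84 prior degrees of freedom), and p-values were adjusted by Benjamini-Hochberg over 19345 probe sets. SE is the moderated standard error. Replicate numbers pair the arrays: after group means were removed, the 18 same-number pairs correlated between 0.251 and 0.609 and the 36 others between -0.357 and -0.0223. Gene lists (53, of which 5 hold markers of other cells) are described by counts and medians, with no list test. The members and lists were chosen with earlier results of these data known.

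Genes named are the 15 largest rises and falls (called, all 3 pairs 1 way, no overlap), in each list up to 5 members, called ones first and then by size, the 5 largest called differences to Kbr each way, and MKI67, TXNIP, HMGCS1 and COL1A1. The rule gave 268 genes; others were named after their values were seen. Summaries used pandas 2.3.3 under Python 3.11.15, and matplotlib 3.10.9 drew the plots. Promoters come from a RefSeq table of GRCh38.p14. The alternatives are in the closing section.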

Additional observations from a re-analysis of the deposited data

Results flagged for a closer look

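The change from 24 h to 48 h differed between Kbr and control cultures in these named genes, by limma's test of the difference (Kbr minus control, log2, adjusted over all probe sets). Below the control change were BLNK (-3.64), EFEMP1 (-3.26), CFB (-3.01), TM7SF2 (-2.90), SLC44A5 (-2.75), ADAMTS5 (-2.25), SSTR5-AS1 (-2.20), COL4A3 (-2.16), TFCP2L1 (-2.13), COL4A4 (-1.98), MOB3B (-1.94), ROBO2 (-1.91), IL1B (-1.64), SPRY1 (-1.63) and SLC6A13 (-0.95). Above it were LINC00973 (1.11), INHBA (1.12), MARCHF3 (1.15), GAL (1.64), DDIAS (1.98), SERPINB8 (2.01), CDC6 (2.02), TNFAIP6 (2.22) and SDF2L1 (3.19). EFEMP1, a matrix glycoprotein, stood at 0.03 in control cultures and fell by 3.23 with Kbr. SDF2L1, a chaperone cofactor, stood at -0.71 without Kbr and rose by 2.47 with it, reading 10.86, 10.37 and 8.12 at 48 h. TM7SF2, a sterol reductase, stood at 0.48 without Kbr and fell by 2.42 with it. SSTR5-AS1, COL4A4 and IL1B passed the expression filter through the control 48 h arrays alone, so the filter fixed their difference. BLNK, COL4A3, ADAMTS5, MOB3B, ROBO2 and SPRY1 passed through control arrays alone and needed those of 48 h, so the filter favoured their difference. MARCHF3 passed through 2 control 24 h arrays and 1 Kbr 24 h array, so the filter favoured its difference too. The genes were named for a large control change, which the difference contains, or for a large difference itself, so the list is a description and gives no share.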

How the results depend on the processing

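Calls for the control comparison numbered 3287 (1378 higher, 1909 lower). With the replicate block removed they numbered 403 (186 and 217), with the 6 control arrays and the block 2134 (964 and 1170) and with those arrays and no block 0 (0 and 0). Leaving out 1 control array, Kbr 48 h replicate 3 or 1 replicate number from all groups gave 36 to 4219 calls (18 to 1792 higher, 18 to 2427 lower). Averaging the probe sets of each gene gave 1946 (728 and 1218), 1 probe set per gene 2202 (912 higher), probe sets without suffix 1715 (845 and 870), an adjusted p under 0.01 964 (430 and 534) and a change of at least 2-fold 290 (161 and 129). The filters on level, median centring, quantile normalization, the offset, the trended prior and array weights kept the count within 1.5 times. The difference to Kbr gave 3306 calls, 904 without the block and 5585 without Kbr 48 h replicate 3; the control arrays alone give no such difference. Of 187 called named genes, 51 kept the call without the block and 129 with the control arrays and block. Without replicate 1, 2 or 3, 38, 13 and 118 kept it. In every omission of 1 control array 91 did, and with no expression filter 120. No direction reversed among named genes that were called. The cause of these changes was not tested, except that fewer arrays and fewer probe sets lie in the construction of some settings.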
